A study of Mus musculus with 12 samples.

Results

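The genes described here are 10 regulators and marker enzymes of the subpallial interneuron lineage, namely Dlx1, Dlx2, Dlx5, Dlx6, Nkx2-1, Isl1, Lhx6, Lhx8, Gad1 and Gad2. They were taken by name, and every probe assigned to them by its RefSeq accession was taken, which gave 12 of 26055 named probes and 10 of 19751 named genes. Lhx6 had 3 probes and each other gene had 1. The cells came from the medial telencephalon of embryos of the CD1 mouse stock, which were electroporated at E11.5 and from which GFP-positive cells were sorted 24 hours after that, at E12.5. There were cells given siRNA set 1 against Dmrt3 and Dmrta2, cells given siRNA set 2 against the same pair of genes, cells given an expression plasmid for Dmrta2, and cells given control siRNAs. All 4 groups also carried a vector for nuclear EGFP, whose signal set the sorting gate, and each had 3 independent replicates. The control siRNAs served as the only control, so the plasmid group had no empty-plasmid counterpart, and every comparison with the controls shares the same 3 control arrays.

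The ganglionic eminences of the ventral telencephalon, or subpallium, produce the GABA-releasing neurons of the forebrain, some of which migrate into the cortex. Nkx2-1 patterns the medial ganglionic eminence and switches on the LIM-homeodomain genes Lhx6 and Lhx8, which direct cortical interneurons and cholinergic neurons. The homeodomain genes Dlx1 and Dlx2 act in progenitors of all the eminences and lie upstream of Dlx5, Dlx6 and the glutamate decarboxylase genes Gad1 and Gad2, whose enzymes make GABA. Isl1 encodes a LIM-homeodomain factor of striatal and cholinergic neurons. Dmrt3 and Dmrta2 encode DM-domain transcription factors of the dorsal and medial telencephalon. The comparisons ask how these ventral genes stood in cells given siRNAs against the dorsomedial factors or a plasmid for Dmrta2.

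The level of a gene is given as the log2 signal of its probe minus the 75th percentile of the log2 signals on the same array, so 0 is the 75th percentile and each unit is a doubling. The scanner software marks each spot as well above its local background or not, and a signal that is not well above background is only an upper bound. The lowest signals marked well above background lay between -6.98 and -6.01 on this scale, depending on the array. This lowest signal of any probe on an array is called its detection limit here. Some probes above it were still not well above background. Dlx6, for example, read -6.41 on control array 2, where the limit was -6.57, and was not well above background. A fold against this limit is therefore no strict lower bound. On the 12 arrays 67.1% to 72.2% of 43020 spots were well above background, no spot was saturated, and the 75th percentile corresponded to 572 to 1142 intensity units. Precision is limited by the number of arrays, and in sorted cell pools a larger number of cells expressing a gene cannot be told apart from more RNA per cell.

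The targeted genes were lower in the siRNA groups, without passing the threshold of an adjusted p under 0.05. Dmrt3 stood at -1.13, -0.13 and -0.72 with set 1 and at -0.81, -0.04 and -0.47 with set 2, against 0.06, 0.33 and 0.68 in control cells. All 6 siRNA arrays lay below all 3 control arrays, and the log2 difference of the averaged sets was -0.91 ± 0.26 (SE, limma adjusted p = 0.162). Dmrta2 differed by -0.46 ± 0.14 (limma adjusted p = 0.204) in the averaged sets, by -0.61 ± 0.16 (limma adjusted p = 0.186) in set 1 and by -0.31 ± 0.16 (limma adjusted p = 0.490) in set 2, where 1 of 3 arrays lay below all control arrays. In the group labelled as given the Dmrta2 plasmid the Dmrta2 probe stood at 2.10, 2.17 and 1.93, against 2.72, 2.37 and 2.61 in control cells (difference -0.50 ± 0.16, limma adjusted p = 0.574). The labels do not give the plasmid's sequence, so whether this probe reads the plasmid's transcript is not known, and an excess of Dmrta2 was not seen in these data.

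Most of the 10 genes were dim in these cells of the medial telencephalon. Nkx2-1 and Lhx8 were well above background on none of the 12 arrays, and Dlx1, Isl1, Gad1 and Gad2 were so on 5, 4, 3 and 4 arrays. Dlx6 was well above background on 10 arrays, and Dlx2, Dlx5 and the brightest Lhx6 probe on all 12. Across the 4 groups, 8 of the 10 genes met the requirement of a signal well above background on at least 3 arrays and were tested. Dlx1, Isl1 and Gad1 met it through siRNA arrays alone, so they entered the test because they were brighter there. Gad2 was well above background on 3 siRNA arrays and 1 control array, and would not have met it without the siRNA arrays. A tally of the tested genes is therefore no support for a shift of the group.

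**Figure D1:**
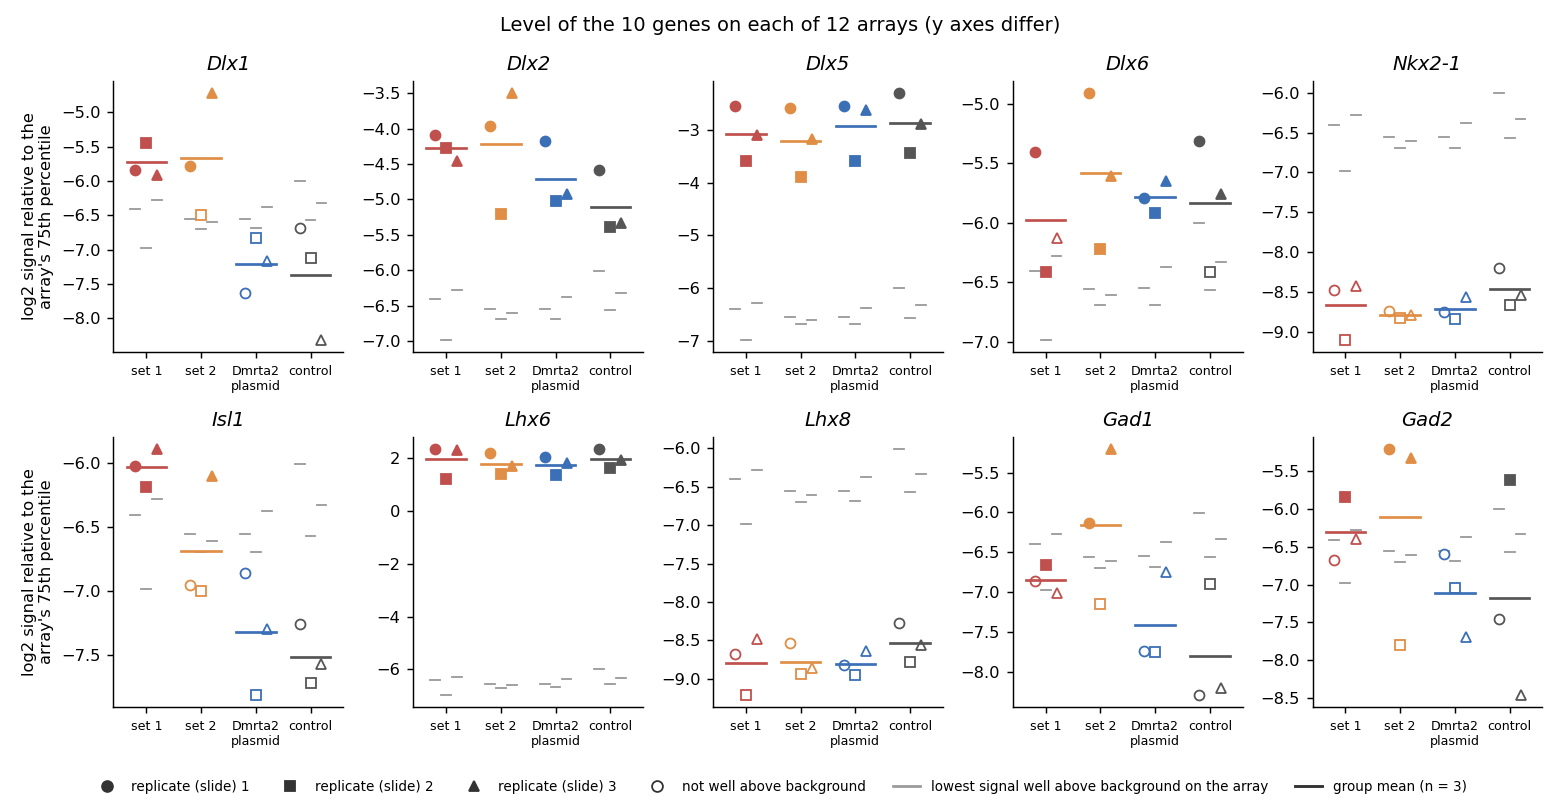
Level of each of the 10 genes on each of the 12 arrays, as log2 signal relative to the array's 75th percentile (y axes differ between panels), for siRNA set 1, siRNA set 2, the Dmrta2 plasmid and control siRNAs. Filled symbols are well above background, open symbols are not, symbol shape gives the replicate (slide), coloured lines are group means of 3 arrays and short grey lines the lowest signal well above background on that array. Dlx1 and Isl1 are filled on siRNA arrays alone, Nkx2-1 and Lhx8 are open on every array, and Dlx5 and Lhx6 follow the slide.

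No gene of the 10 passed the threshold in any of the 6 comparisons made. In the average of both siRNA sets against control siRNAs, 0 of 8 tested genes had an adjusted p under 0.05, where 0.67% of all 15369 tested genes did. The unadjusted p was under 0.05 for 4 of the 8 (Dlx1, Dlx2, Isl1 and Gad1), all with higher values in siRNA cells, beside 12.1% of all tested genes in either direction and 7.26% with higher values. The adjusted p-values of the 8 genes in that comparison ran from 0.0715 to 0.977. The median log2 difference of all tested genes was -0.01, so the scaling left no shift in the median gene. This median does not describe dim probes. Spots well above background made up 67.1% to 69.0% on control arrays and 68.9% to 72.2% on set 1 arrays. They made up 70.0% to 72.0% on set 2 arrays and 70.0% to 70.9% on plasmid arrays.

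Among the progenitor regulators, Dlx1 had the largest measured difference. It stood at -5.83, -5.44 and -5.91 with siRNA set 1 and at -5.77, -6.50 and -4.72 with set 2, against -6.68, -7.13 and -8.31 in control cells. Its signal cleared the background on 3 of 3 arrays of set 1 and 2 of 3 of set 2, against 0 of 3 control arrays. The measured values of the 6 siRNA arrays did not overlap those of the 3 control arrays, a separation that 3.23% of tested genes showed upward, but replicate 2 of set 2 and all control values are upper bounds, so nothing is read from their order. With the controls held at the detection limit, Dlx1 was 1.49-fold higher with set 1 than in control cells (limma adjusted p = 0.235 for the measured difference). No fold is given where an array of the brighter group was itself not well above background. The measured log2 difference of the averaged siRNA sets was 1.68 ± 0.42 (SE, limma adjusted p = 0.113). It was 0.60 with values under the detection limit raised to that limit, and 0.08 (limma adjusted p = 0.941) with the normexp background correction. That correction adds an offset of 50 units to every signal, which shrinks differences between dim signals. The limits differ between arrays, which shifts the raised values. Nkx2-1, under the limit on every array, gave -0.29 in the averaged sets when raised in the same way. Within slides 1, 2 and 3 the measured Dlx1 differences of the averaged sets were 0.88, 1.16 and 3.00, all against control values that are upper bounds. Leaving out 1 array at a time gave 1.21 to 2.02.

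Dlx2, the neighbour of Dlx1 on chromosome 2, was bright enough to be measured on every array. Its levels were -4.10, -4.27 and -4.46 with siRNA set 1 and -3.96, -5.20 and -3.50 with set 2, against -4.59, -5.39 and -5.33 in control cells. The signals behind them were 33.5, 59.3 and 31.6 units with set 1 and 40.0, 19.3 and 75.7 units with set 2, against 25.8, 16.5 and 18.2 units in control cells. Replicate 2 of set 2 fell inside the control range and the other 5 siRNA arrays lay above it. The log2 difference of the averaged sets was 0.85 ± 0.35 (SE, 95% interval 0.08 to 1.63, limma adjusted p = 0.353), a 1.81-fold higher level, and 0.24 with the normexp correction (limma adjusted p = 0.790). Set 1 differed from control cells by 0.83 ± 0.40 and set 2 by 0.88 ± 0.40 (limma adjusted p = 0.557 and 0.402). Within slides 1, 2 and 3 the averaged sets were higher by 0.56, 0.65 and 1.35.

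Dlx5 and Dlx6, which lie next to each other on chromosome 6 and act downstream of Dlx1 and Dlx2 in the mouse, did not share those values. Dlx5 stood at -2.54, -3.58 and -3.09 with set 1 and at -2.58, -3.89 and -3.16 with set 2, against -2.30, -3.44 and -2.88 in control cells. The groups overlapped, and each siRNA array was lower than the control array of its own slide. The log2 difference of the averaged sets was -0.27 ± 0.37 (SE, 95% interval -1.09 to 0.55, limma adjusted p = 0.874), with -0.26, -0.30 and -0.25 within slides 1, 2 and 3. That SE includes the spread between slides. With the slide as a block in the model it was 0.11 (limma adjusted p = 0.242). Dlx6 differed by 0.05 ± 0.32 (95% interval -0.66 to 0.76, limma adjusted p = 0.977), with an SE of 0.18 when the slide was blocked (limma adjusted p = 0.908). Dlx6os1, a noncoding gene antisense to Dlx6, was well above background on 1 of 12 arrays, replicate 3 of set 2, at -5.52.

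Isl1 had the lowest adjusted p of the tested genes in the averaged siRNA sets and in set 1. It stood at -6.03, -6.18 and -5.89 with set 1 and at -6.95, -7.00 and -6.10 with set 2, against -7.26, -7.72 and -7.56 in control cells. Replicates 1 and 2 of set 2 and all control values are upper bounds, so nothing is read from their order. The probe cleared the background on 3 of 3 arrays of set 1 and 1 of 3 of set 2, against 0 of 3 control arrays. With the controls held at the detection limit, Isl1 was 1.20-fold higher with set 1 than in control cells. On slide 1 the set 1 value of -6.03 lay under the limit of the control array, -6.01. The measured log2 difference in set 1 was 1.48 ± 0.28 (SE, limma adjusted p = 0.0678). For the averaged sets the measured difference was 1.16 ± 0.24 (limma adjusted p = 0.0715), but the siRNA mean did not exceed the detection limit of the control arrays, so no fold is given. With the slide as a block in the model, Isl1 passed the threshold in the averaged sets (limma adjusted p = 0.0367) and in set 1 (limma adjusted p = 0.0371). With dim values raised to the detection limit the difference was 0.06 in the averaged sets, 0.27 in set 1 and -0.15 in set 2. Nkx2-1, under the limit on every array, gave -0.29, -0.25 and -0.32 in the same comparisons, because the limits differ between arrays. With the normexp correction the Isl1 difference was 0.00067 in the averaged sets (limma adjusted p = 0.999) and 0.01 in set 1. The offset in that correction shrinks differences between dim signals, so these normexp values cannot tell a small difference from none. Within slides 1, 2 and 3 the measured differences of the averaged sets were 0.77, 1.12 and 1.57, again against upper bounds.

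The array carried 10 spots of the Isl1 probe, which gives a second view of the same hybridisation. After marked spots were left out, 7 of 9, 8 of 8 and 7 of 8 spots were well above background on the set 1 arrays, and 2, 1 and 9 of 10 on the set 2 arrays. On the 3 control arrays 0 of 10, 0 of 9 and 0 of 10 spots were. The SD of the spots was 0.18 to 0.34 on the set 1 arrays, 0.29 to 0.53 on the set 2 arrays and 0.25 to 0.68 on the plasmid arrays, against 0.55 to 0.62 on the control arrays. These spots share the RNA of their array and are no replicates of the condition. Nkx2-1 was also printed 10 times, and 0 of its spots were well above background in any group.

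**Figure D2:**
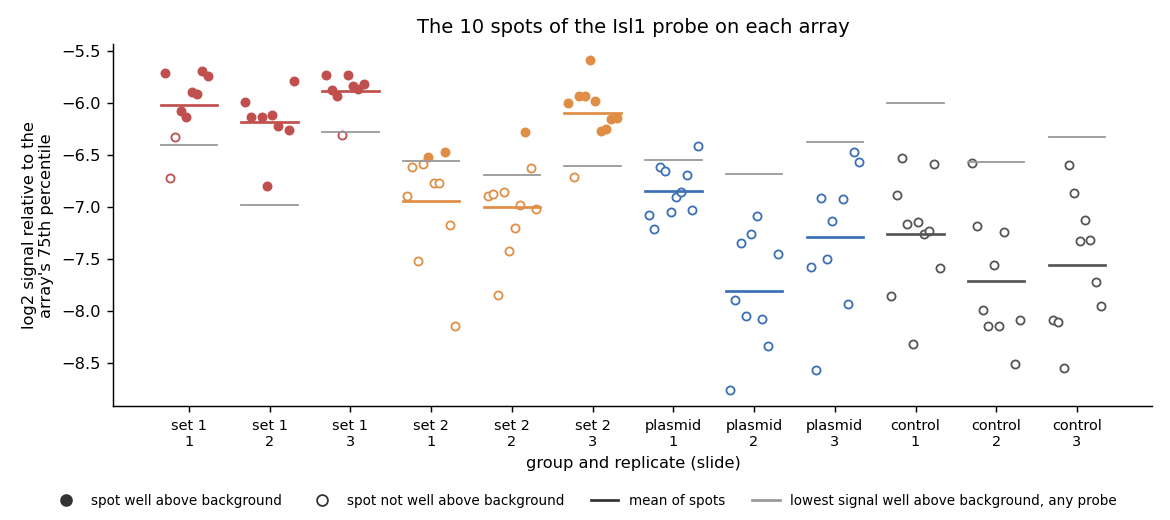
Log2 signal, relative to the array's 75th percentile, of every unmarked spot of the Isl1 probe on each array, grouped as siRNA set 1, siRNA set 2, Dmrta2 plasmid and control siRNAs with the replicate number below. Filled spots are well above background, coloured lines are the mean of the spots and grey lines the lowest signal well above background of any probe. Filled spots dominate the 3 set 1 arrays and replicate 3 of set 2, and the plasmid and control arrays hold none.

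Upstream sequence was examined because Dlx1, Dlx2 and Isl1 are the transcription factor genes with an unadjusted p under 0.05 in the siRNA average, a choice made after their values were seen. RefSeq promoter windows of build GRCm38.p6, from 250 bases before to 50 after a gene's start, were given for 8 of the 10 genes (10 windows). Each is printed from 5' to 3' on the strand of the gene, with every CpG dinucleotide in capitals. The Dlx1 window is chr2:71529195-71529494 on the plus strand, the Dlx2 window chr2:71546705-71547004 on the minus strand, and the Isl1 window chr13:116309639-116309938 on the minus strand.
Dlx1: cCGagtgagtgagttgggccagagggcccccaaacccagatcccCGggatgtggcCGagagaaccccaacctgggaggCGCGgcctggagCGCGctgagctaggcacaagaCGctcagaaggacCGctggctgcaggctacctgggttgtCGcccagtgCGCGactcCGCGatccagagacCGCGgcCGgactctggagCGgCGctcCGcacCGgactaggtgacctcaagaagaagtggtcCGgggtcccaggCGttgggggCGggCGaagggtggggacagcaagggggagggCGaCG
Dlx2: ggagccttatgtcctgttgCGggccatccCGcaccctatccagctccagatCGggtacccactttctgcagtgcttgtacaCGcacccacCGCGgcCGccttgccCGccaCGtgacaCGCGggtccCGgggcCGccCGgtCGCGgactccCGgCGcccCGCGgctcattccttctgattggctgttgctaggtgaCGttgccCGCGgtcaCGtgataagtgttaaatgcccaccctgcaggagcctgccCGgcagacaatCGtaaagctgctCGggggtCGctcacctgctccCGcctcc
Isl1: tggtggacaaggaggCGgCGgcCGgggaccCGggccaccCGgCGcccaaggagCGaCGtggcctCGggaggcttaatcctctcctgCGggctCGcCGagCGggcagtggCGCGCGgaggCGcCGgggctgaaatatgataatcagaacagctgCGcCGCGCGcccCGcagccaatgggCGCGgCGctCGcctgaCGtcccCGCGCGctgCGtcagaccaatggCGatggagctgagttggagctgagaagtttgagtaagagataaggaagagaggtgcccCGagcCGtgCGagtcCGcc

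These windows held 27, 29 and 37 CpG dinucleotides, where the median of 32851 mouse windows was 7, and their G and C content was 69.3%, 66.3% and 69.0% beside a median of 52.7%. Over the 10 windows the CpG number ran from 4 in Lhx8 to 37 in Isl1, and Nkx2-1 had 12. The letters ACANTGT, the core that DM-domain proteins bind in vitro and the same when read on the other strand, stood in 0 of the 10 windows and in 7.54% of all windows. The homeodomain letters TAATTA, also alike on both strands, stood in 0 of the 10 and in 5.29% of all windows. The E-box letters CAGCTG occurred 1 time in the Isl1 window, 103 bases before the start, and 2 times in 1 of the 3 Lhx6 windows, beside 16.3% of all windows that held them. The absence of a match says only that these letters are not in these windows.

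The genes of the medial ganglionic eminence gave no common picture, since Nkx2-1 and Lhx8 had no signal and the Lhx6 probes disagreed. Nkx2-1 ran from -9.10 to -8.43 with set 1 and from -8.83 to -8.74 with set 2, against -8.66 to -8.20 in control cells, with 0 of 12 arrays well above background. Lhx8 ran from -9.21 to -8.48 with set 1 and from -8.94 to -8.53 with set 2, against -8.79 to -8.27 in control cells, again with 0 of 12 arrays. All these values lie under the detection limit and their order carries no information, and a low level of either transcript was not detectable on these arrays.

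The brightest Lhx6 probe, A_55_P2005903, read 2.36, 1.23 and 2.33 with set 1 and 2.21, 1.42 and 1.71 with set 2, against 2.34, 1.65 and 1.94 in control cells. It was therefore brighter than 75% of the array's spots in every group, and the log2 difference of the averaged sets was -0.10 ± 0.29 (SE, 95% interval -0.74 to 0.55, limma adjusted p = 0.954). When the slide was blocked the SE was 0.13 (limma adjusted p = 0.742). A second probe assigned to the same transcript, A_55_P2094158, was well above background on 2 of 12 arrays, at -5.32 and -5.83 in replicates 1 and 3 of set 2, and lay between -8.75 and -6.83 elsewhere. The remaining probe, A_55_P2094149, assigned to another Lhx6 transcript, was well above background on 0 of 12 arrays. The first probe represents Lhx6 in the tests by the rule of the highest mean, and the difference in brightness between probes leaves the level of Lhx6 uncertain. Which probe reports the Lhx6 transcript in these cells was not tested.

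**Figure D3:**
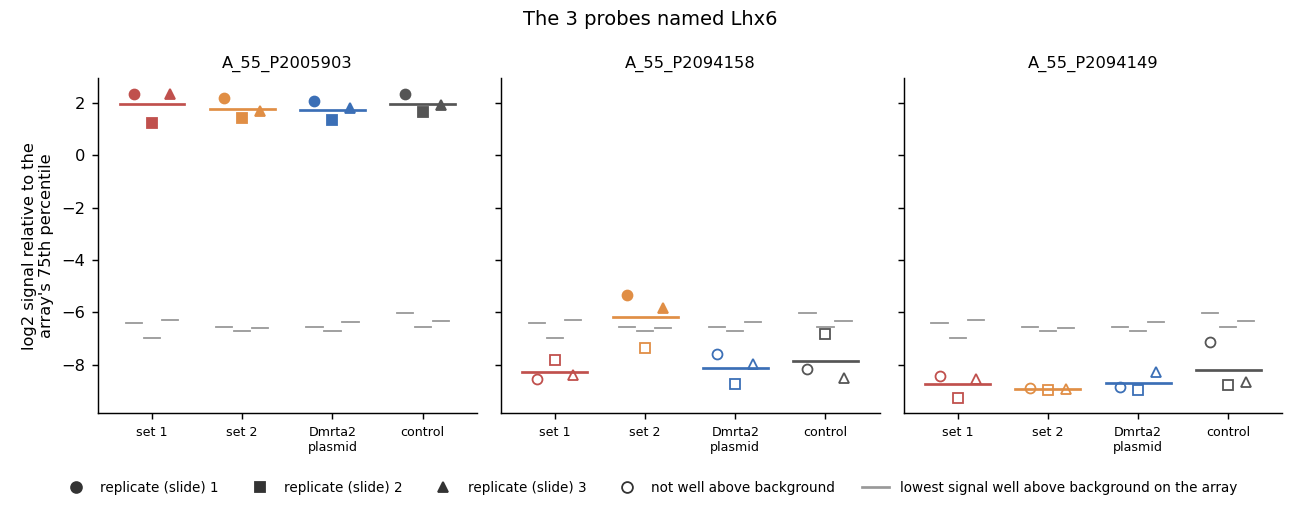
Log2 signal relative to the array's 75th percentile for the 3 probes named Lhx6, by group, with filled symbols well above background, symbol shape for the replicate (slide) and lines for the group mean of 3 arrays. The left probe reads between 1.23 and 2.36 on all arrays, the middle probe is filled only in replicates 1 and 3 of siRNA set 2, and the right probe is open on every array.

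The GABA-synthesis genes were higher on some siRNA arrays with wide scatter. Gad1 stood at -6.86, -6.66 and -7.01 with set 1 and at -6.14, -7.15 and -5.20 with set 2, against -8.30, -6.90 and -8.21 in control cells. Its signal cleared the background on 1 of 3 arrays of set 1 and 2 of 3 of set 2, against 0 of 3 control arrays. For the averaged sets the measured log2 difference was 1.30 ± 0.44 (SE, limma adjusted p = 0.248), and it was 0.07 with dim values raised to the detection limit and 0.06 with the normexp correction. In set 2 it was 0.29 with dim values raised. Raised in the same way, Nkx2-1 gave -0.29 in the averaged sets and -0.32 in set 2. The measured differences within slides 1, 2 and 3 were 1.80, -0.01 and 2.10, all taken against control values that are upper bounds.

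Gad2 stood at -6.68, -5.84 and -6.39 with set 1 and at -5.20, -7.80 and -5.33 with set 2, against -7.45, -5.62 and -8.46 in control cells. The groups overlapped, the control array of slide 2 being brighter than 4 of the 6 siRNA arrays, and the log2 difference was 0.97 ± 0.68 (SE, 95% interval -0.53 to 2.47, limma adjusted p = 0.656). The slides gave 1.51, -1.20 and 2.60. Many of the Gad1 and Gad2 values behind the differences within slides are upper bounds, so no order of slides is read from them.

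The siRNA sets were also set against each other. Here 0 of 8 tested genes passed the threshold, where 0.0781% of all tested genes did. Isl1 differed between set 2 and set 1 by -0.65 ± 0.28 (SE, 95% interval -1.27 to -0.03, limma adjusted p = 0.493). Gad1 differed by 0.68 ± 0.50 (95% interval -0.44 to 1.80), Dlx1 by 0.06 ± 0.48 and Dlx2 by 0.05 ± 0.40. Against control siRNAs, 0 of 8 genes passed with set 1 and 0 of 8 with set 2, where 0.234% and 1.02% of all tested genes did.

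**Figure D4:**
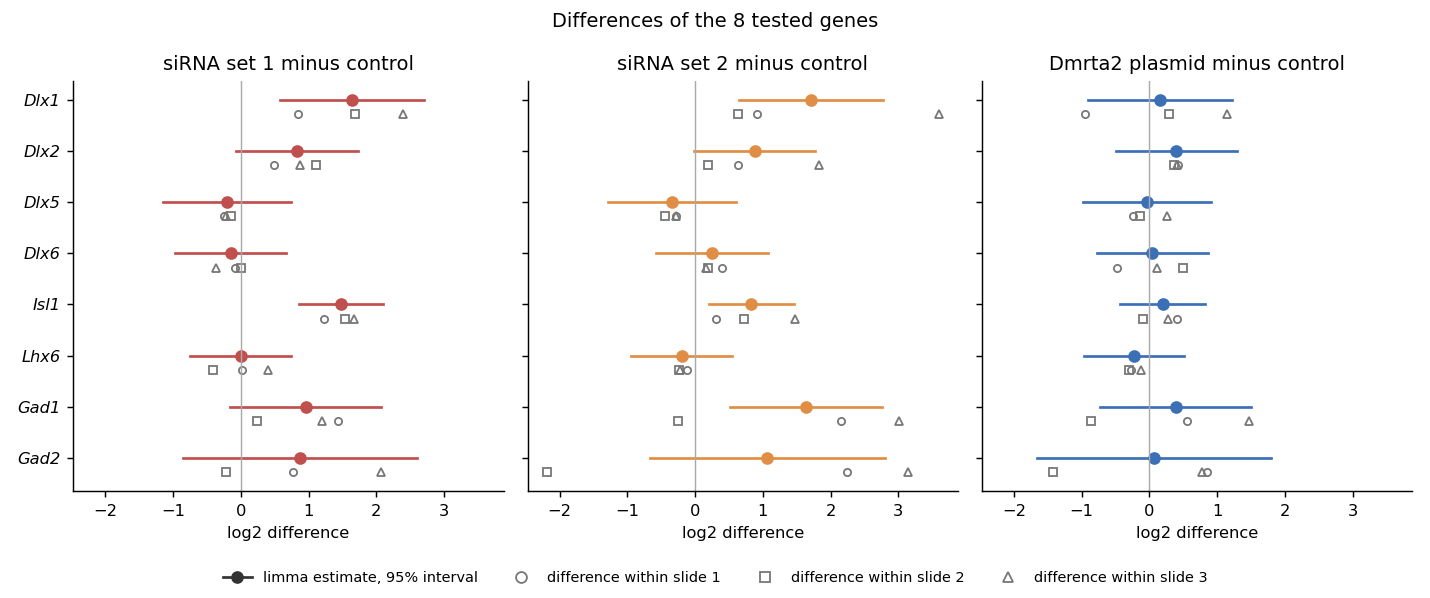
Log2 difference of the 8 tested genes from control siRNAs for siRNA set 1, siRNA set 2 and the Dmrta2 plasmid, with limma estimates (circles), 95% intervals (bars) and the difference within each slide below each bar (open symbols). For Dlx1, Isl1 and Gad1 the control values were below the detection limit and enter as measured. Intervals clear of 0 belong to Dlx1 and Isl1 in both siRNA sets and Gad1 in set 2, and every interval of the plasmid group spans 0.

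With the Dmrta2 plasmid no gene of the 10 differed from control cells past the threshold. In the plasmid group against control siRNAs 0 of 8 tested genes passed the threshold, where 0.273% of all tested genes did, and 0 of 8 had an unadjusted p under 0.05, beside 4.44% of all tested genes. Dlx2 stood at -4.18, -5.02 and -4.92 in plasmid cells, against -4.59, -5.39 and -5.33 in control cells, a difference of 0.40 ± 0.40 (SE, 95% interval -0.50 to 1.29), with 0.42, 0.36 and 0.41 within the slides. Dlx1 stood at -7.63, -6.84 and -7.17 in plasmid cells and was well above background on none of those arrays or of the control arrays. Isl1, at -6.85, -7.81 and -7.29, and Gad1, at -7.74, -7.75 and -6.75, were likewise not well above background on any plasmid array. Dlx5 differed from control cells by -0.04 ± 0.43 and Lhx6 by -0.23 ± 0.34 (95% intervals -0.99 to 0.90 and -0.97 to 0.51).

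Plasmid cells were compared with the averaged siRNA sets, which uses no control array. Again 0 of 8 genes passed the threshold, where 2.15% of all tested genes did, and the measured Dlx1 values of the 3 plasmid arrays did not overlap those of the 6 siRNA arrays, a separation that 3.31% of tested genes showed downward and that rests on upper bounds. Dlx1 had a measured log2 difference of -1.51 ± 0.42 (SE, limma adjusted p = 0.105), which was -0.84 with dim values raised to the detection limit and turned to 0.05 with the normexp correction. The measured difference of Isl1 was -0.96 ± 0.24 (limma adjusted p = 0.0814). A model that blocked the slide put it past the threshold (limma adjusted p = 0.0416), as did the authors' deposited log2 values (difference -1.15, limma adjusted p = 0.0337). With dim values raised to the detection limit it was -0.30, and with the normexp correction it turned to 0.12 (limma adjusted p = 0.771). Dlx2 differed by -0.46 ± 0.35 (95% interval -1.23 to 0.32, limma adjusted p = 0.662). The same siRNA arrays enter the comparisons above, so these values are no separate evidence.

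The genes differed in how much of their variation followed the slide rather than the group. The slide accounted for 88.4% of the variance of Dlx5 over the 12 arrays, 79.3% of that of Lhx6 and 68.2% of that of Dlx6. The group accounted for 78.3% of the variance of Isl1, 68.9% of that of Dlx1 and 54.2% of that of Gad1. Isl1, Dlx1 and Gad1 entered the test through siRNA arrays alone, and their control and plasmid values are upper bounds. Their group shares are therefore no support for a group difference, and the share over all genes was not computed. Dlx5 averaged -2.49, -3.62 and -2.93 on slides 1, 2 and 3, and Lhx6 2.24, 1.41 and 1.95, with slide 2 lowest for both. Each slide held 1 array of every group at a fixed position, so the position and the group cannot be told apart.

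Among the 13971 other genes well above background on at least 9 arrays, those with the pattern most like Lhx6 over the 12 arrays were Krt222, Snap23 and Tacr2 (Pearson r 0.996, 0.996 and 0.995). For Dlx5 they were Car9, Unkl and Tdh (r 0.979, 0.978 and 0.976), and for Dlx6 Pdcd1, Msl3l2 and B3gnt4 (r 0.917, 0.879 and 0.874). For Dlx2 they were Ebpl, Lrrfip1 and Sparcl1 (r 0.886, 0.852 and 0.846). The arrays of 1 slide share their processing, and these correlations describe the 12 arrays without a test.

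Other genes of the same pathways were examined as lists. Of 18 progenitor and upstream regulators of the subpallium 15 were tested, and 0 passed the threshold in any comparison. The 3 values with the largest moderated t in the averaged siRNA sets were 0.96 ± 0.20 for Olig2 (limma adjusted p = 0.0674), a basic helix-loop-helix factor of ventral progenitors, 0.78 ± 0.21 for Otx2 and 0.90 ± 0.34 for Olig1 (limma adjusted p = 0.133 and 0.308). Olig2 passed in set 1 when the slide was blocked (1.34 ± 0.23, limma adjusted p = 0.0495, and 0.0508 without the block). The list median was -0.11 in the averaged siRNA sets and 0.06 in plasmid cells, beside -0.01 and 0.00 for all tested genes.

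Sonic hedgehog, the signal that induces Nkx2-1, was itself well above background on no array. Of 8 genes of its pathway 6 were tested and 0 passed in any comparison, with Gli1, a transcriptional readout of the pathway, at -0.58 ± 0.46 (limma adjusted p = 0.708) in the averaged siRNA sets. The list median was 0.01 there. Of 17 named interneuron and GABA neuron genes 14 were tested and 0 passed against control siRNAs, with a list median of 0.25. Slc32a1, the vesicular GABA transporter, stood at 0.97 ± 0.52 (limma adjusted p = 0.525). In plasmid cells against the averaged siRNA sets Maf was higher by 1.80 ± 0.40 (limma adjusted p = 0.0492) and Zeb2 was lower (-1.15 ± 0.22, limma adjusted p = 0.0272), 2 of the 14 genes. Of all tested genes 2.15% passed in that comparison, and the list median was 0.07.

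Of 19 striatal and cholinergic genes 18 were tested and 0 passed in the averaged siRNA sets, with a list median of 0.12. Slc5a7, the choline transporter, was well above background on 3 arrays, all of them siRNA arrays, and so entered the test through the group where it was brighter. Its measured difference was 1.49 ± 0.29 (limma adjusted p = 0.0519, and 0.0364 when the slide was blocked), taken against control values that are only upper bounds. In plasmid cells Ebf1, a striatal differentiation factor, rose by 1.34 ± 0.18 over control cells (limma adjusted p = 0.0121). Against the averaged siRNA sets Ebf1 (1.17 ± 0.16), Tac1 (2.12 ± 0.26), the neuropeptide gene of substance P, and Slc18a3 (0.91 ± 0.16), the vesicular acetylcholine transporter, were higher in plasmid cells and Foxp2 (-1.63 ± 0.30) lower (limma adjusted p from 0.0028 to 0.0217), 4 of 18 genes. Of all tested genes 2.15% passed in that comparison. Of the 18 genes 7 had higher and 11 lower values there, with a list median of -0.10.

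All 16 genes of pallial progenitors and neurons were well above background on all 12 arrays and 0 of 16 passed against control siRNAs. Pax6, a dorsal progenitor factor, stood at 1.06 ± 0.27 in the averaged siRNA sets (limma adjusted p = 0.118, and 0.0380 when the slide was blocked). It was lower in plasmid cells than in the averaged siRNA sets (log2 difference -1.52 ± 0.27, limma adjusted p = 0.0172). The list median was 0.05 in the averaged siRNA sets and -0.28 in plasmid cells against control siRNAs. Of 10 tested hypothalamic and diencephalic genes, Tal2 fell in the averaged siRNA sets (-1.11 ± 0.20, limma adjusted p = 0.0428, and 0.0528 when the slide was blocked), and 8 of the 16 listed were below background on all control arrays. Tal2 was also lower in set 2 (-1.56 ± 0.24, limma adjusted p = 0.0287). In plasmid cells against the averaged siRNA sets Tal2 (1.25 ± 0.20, limma adjusted p = 0.0120) and Lhx5 (1.1 ± 0.23, limma adjusted p = 0.0363, and 0.0514 when the slide was blocked) were higher.

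**Figure D5:**
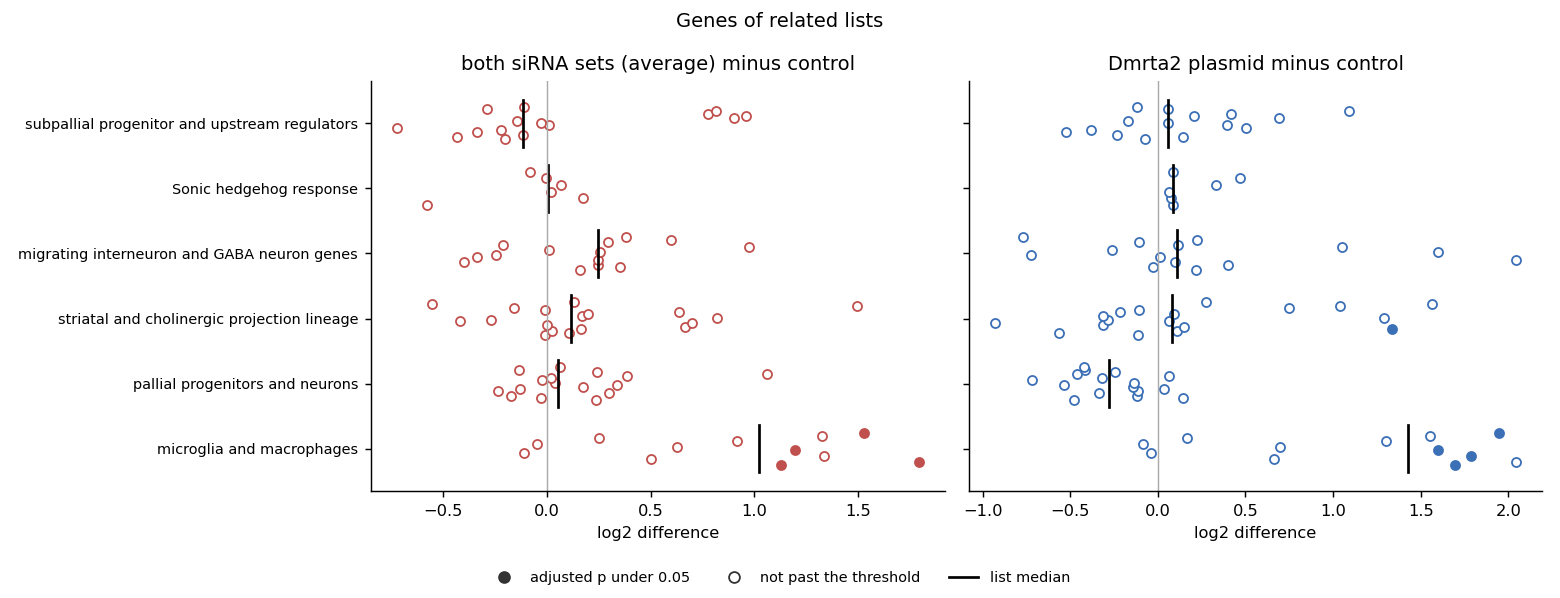
Log2 differences of the tested genes of 6 lists, for the averaged siRNA sets against control siRNAs (left) and the Dmrta2 plasmid against control siRNAs (right). Each circle is a gene, filled where the limma adjusted p was under 0.05, and the black line is the list median. Filled circles are found among microglia and macrophage genes on both sides and, on the right, for Ebf1 among the striatal and cholinergic genes.

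Lists of microglial, mesenchymal, erythroid, peripheral neuron and endothelial genes covered other cells, and only the first had genes past the threshold against control siRNAs. Of 12 microglia and macrophage genes, 4 rose in the averaged siRNA sets (Tyrobp by 1.53 ± 0.22, C1qa by 1.79 ± 0.32, Cx3cr1 by 1.20 ± 0.18 and Aif1 by 1.13 ± 0.19, limma adjusted p from 0.0208 to 0.0428), 6 rose in set 2, where C1qc (1.77 ± 0.30) and Trem2 (1.80 ± 0.33) joined them, and 4 rose in plasmid cells. Among all tested genes, 0.67%, 1.02% and 0.273% passed in these comparisons, in either direction. The list median was 1.02 in the averaged siRNA sets and 1.43 in plasmid cells. The summed signal of the list overlapped between groups, at 1141% to 2606% of the 75th percentile with set 1, 1313% to 2519% with set 2 and 1312% to 2439% in plasmid cells, against 1381% to 2470% in control cells. The array of slide 2 gave the lowest sum in every group. Laptm5 was the only gene of the list below background on all control arrays.

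Of 8 tested mesenchymal and meningeal genes 0 passed, with Dcn at 0.83 ± 0.20 in the averaged siRNA sets (limma adjusted p = 0.0979), and their summed signal was 840%, 224% and 290% of the 75th percentile on the set 1 arrays and 180% to 206% on the set 2 arrays, against 146% to 183% on the control arrays. Of 8 tested erythroid genes 0 passed, and they summed to 193% to 1882% with set 1, highest on replicate 1, 368% to 808% with set 2 and 542% to 1116% in plasmid cells, against 212% to 403% in control cells. Without replicate 1 of set 1, the difference of Isl1 in the averaged sets was 1.15 (limma adjusted p = 0.0925) and that of Dlx1 was 1.70 (limma adjusted p = 0.129). Of 6 tested peripheral sensory and cranial neuron genes, some of which are expressed with Isl1 in ganglia, 0 passed, and Pou4f2 was well above background on no array. Of 7 tested endothelial genes 0 passed. The part of these cells in the values of the 10 genes was not tested beyond those values.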

How the data were processed

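Scanner intensities were measured on 12 single-colour Agilent mouse arrays, 3 for each of 4 groups, on 3 slides of 4 arrays, and the slide equals the replicate number. The processed signal intensity was background-subtracted and detrended by Agilent Feature Extraction 10.5.1.1, per the file headers, and not normalized between arrays. The deposited log2 table, whose scale no label states, matched the processed signal scaled to each array's 75th percentile and centred per probe (r above 0.999), and served as an alternative. Here the 75th percentile was subtracted from the log2 signals of spots other than controls, marked spots (136 to 218 per array) were left out, spots of a probe were averaged, and a probe counted as well above background where over 50% of its spots did. Probes were named through RefSeq accessions in a GRCm38.p6 gene table, while the array design used mm9, so no array coordinates are given. Probes well above background on at least 3 of 12 arrays were kept and the brightest kept probe, by its mean over the arrays, stood for a gene. The tests used limma 3.58.1 (R 4.3.3; lmFit and eBayes, all 12 arrays, two-sided, Benjamini-Hochberg over 15369 genes, threshold 0.05). SE is limma's moderated error. Replicates are called independent in the labels, with no more detail. Deviations of same-slide arrays from their group means correlated with r from 0.02 to 0.60 over 18 pairs. On simulated data for the siRNA average (15295 genes without missing values), 70% of changes of 1 and 99% of changes of 2 log2 units were recovered. In addition, 12 unchanged genes were called. The changed genes were drawn at random from all of these, with independent normal noise, no slide effect and no detection limit. These shares therefore do not give the power for the dim genes described here.

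The 10 genes and the lists were chosen with earlier results of these data known. Named are all 10 genes with every probe, Dmrt3 and Dmrta2, list genes past the threshold, and of a list with none up to 4 with the largest t in the siRNA average, plus the 3 most alike genes of each gene well above background on at least 9 arrays. Some genes of the lists are not reported here. Alternatives were the slide as a block, another background correction, quantile and median scaling, the deposited table, other filters, the mean of a gene's probes, an intensity trend, leaving out each array and, added after the data were seen, dim values raised to the detection limit.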

Additional observations from a re-analysis of the deposited data

Results flagged for a closer look

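The second Lhx6 probe, A_55_P2094158, which represents the gene in no comparison, reached -5.32 on the log2 scale relative to the 75th percentile in replicate 1 of siRNA set 2, and -5.83 in replicate 3, both well above background. It was well above background on 0 of 3 control arrays, where it read -8.17, -6.83 and -8.51. It was listed because this signal lies in a probe outside the tests and above its level in the control samples. The brighter Lhx6 probe read 2.21 and 1.71 on the same set 2 arrays, against 2.34 and 1.94 on control arrays 1 and 3. The cause was not tested.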

How the results depend on the processing

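The number of the 10 genes past the threshold was 0 in all 6 comparisons and stayed 0 under each alternative that gave a value except these: with the replicate block (slide) it was 1 (Isl1) in the averaged siRNA sets, in set 1 and in plasmid cells against the averaged siRNA sets, and with the deposited table it was 1 (Isl1) in the last of these. The block left the count at 0 in the other 3 comparisons. It raised the number of all genes called to 233 in the averaged siRNA sets and 114 in set 1, against 103 and 36 without it. Leaving out 1 array at a time gave counts from 0 to 0. Over 48 log2 differences of the 8 tested genes and 22 alternatives (1026 values), 4 passed the threshold, all Isl1, and 63 had another sign than the main value. The differences of dim genes depended on how dim signals were treated. Set to the detection limit, Dlx1, Isl1 and Gad1 differed by 0.60, 0.06 and 0.07 in the averaged siRNA sets and Dlx2 by 0.85. Nkx2-1, under the limit on every array, gave -0.29 there. With the normexp correction (offset 50) the siRNA differences were 0.08 for Dlx1, 0.00067 for Isl1 and 0.24 for Dlx2, and in plasmid against siRNA cells those of Dlx1 and Isl1 turned to 0.05 and 0.12. The offset shrinks differences between dim signals, so these normexp values cannot tell a small difference from none. The normexp correction used median spot signals, and its first fit failed on 3 arrays with marked local backgrounds until these were replaced, a repair chosen after the data were seen.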
